A study of Mus musculus with 6 samples.

Results

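Follicular helper T cells are CD4 T cells that help B cells make antibody in germinal centres. The transcription factor Bcl6 is required for their formation, the chemokine receptor CXCR5 brings them to the B cell follicle, the costimulatory receptor ICOS and the adaptor SAP (gene Sh2d1a) sustain contact with B cells, and the cytokine IL-21 acts on those B cells. Some Foxp3-expressing regulatory T cells share Bcl6, CXCR5 and ICOS with them and are known as follicular regulatory T cells. The genes described here are Bcl6, Cxcr5, Icos, Sh2d1a, Il21, Maf, Ascl2, Slamf6 and Angptl2, a list of 9, and each was followed through every probe set whose only gene symbol in the platform annotation is that gene. In this way 21 of the 45101 probe sets on the array were found for 8 genes: 6 for Maf, 3 each for Icos, Slamf6 and Ascl2, 2 each for Bcl6 and Il21, and 1 each for Cxcr5 and Sh2d1a. The annotation used here lists no probe set with Angptl2, an angiopoietin-like secreted protein, as its only symbol, so that gene was not analysed here.

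Messenger RNA was measured on 6 arrays, each from lymph node T cells of mice sorted as CD4+YFP+ by flow cytometry. The 3 KO arrays (A, B and C) are from FoxP3-GFP-hCre x ROSA26R-YFP mice in which both Dicer alleles are flanked by lox sites (Dicerlox/lox), and the 3 Het arrays (A, B and C) are from mice that carry the same Cre and reporter with 1 wild-type and 1 lox allele (Dicerwt/lox). The comparison asks how these genes differ when both Dicer alleles, rather than 1, can be deleted in cells that have expressed Foxp3. Het cells can lose a Dicer allele too, and no group without a lox allele was analysed here. Cre follows Foxp3 expression and YFP stays on after Cre has acted, so a sorted cell need not still express Foxp3. Age and strain are not given in the sources used here, nor is it stated whether A, B and C are separate animals, so p-values cover only the spread of these arrays and that spread may be technical. In bulk RNA of sorted cells, fewer cells that express a gene and less of its RNA per cell cannot be told apart.

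Dicer cuts hairpin precursors into mature microRNAs, which lower their target messenger RNAs chiefly through the seed, bases 2 to 8. Several microRNAs have been reported in mouse T cells to act on genes of this list: miR-10a on Bcl6, miR-101 and miR-146a on Icos, and miR-155 on Maf. Their mature sequences (RefSeq, GRCm38.p6) are shown because their production needs Dicer. Capitals mark the seed. The 4 seeds differ from each other.
mmu-miR-10a-5p: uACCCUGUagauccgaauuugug
mmu-miR-101a-3p: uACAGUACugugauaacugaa
mmu-miR-146a-5p: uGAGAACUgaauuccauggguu
mmu-miR-155-5p: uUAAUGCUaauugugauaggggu
The arrays did not measure mature microRNAs, and no search for seed matches was made, since no transcript sequences were used here.

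The labelled cell type and the state of the arrays were checked first. Cd3d, a chain of the T cell receptor complex, read 26535 to 28922 in KO and 31906 to 34413 in Het, and Cd4 read 5161 to 6651 in KO and 4694 to 5809 in Het. Foxp3 read 5453, 9417 and 5420 in KO and 9960, 8945 and 9769 in Het (limma, adjusted p = 0.285). The brighter Dicer1 probe set had a log2 difference of -0.03 and the dimmer one of -0.52 (limma, adjusted p = 0.891 and 0.145), and it is not known whether these probes lie in the part that Cre removes, so they check no label. The B arrays of both groups stood apart: 8 of 10 measured B cell markers and both CD8 chains were highest on the B array of each group. Array medians were 58.1 to 61.5, and values are GCRMA intensities on a linear scale.

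Of the 21 probe sets, 18 passed the filter on dim values (log2 above 4 on at least 3 arrays) and were tested for KO against Het. By limma 0 of the 18 passed at an adjusted p under 0.05, a rule that called 1.78% of the 29507 probe sets tested (1.11% higher and 0.668% lower in KO). At an unadjusted p under 0.05, 5 of the 18 were higher and 2 lower in KO, a rule that 19.1% of all tested probe sets met (9.24% higher and 9.85% lower). Groups did not overlap for 7 of the 18, with every KO array above every Het array for 5 and below for 2, against 26.2% of all probe sets (11.3% above and 14.9% below). These counts are over probe sets, several of which read the same gene. By the brightest probe set of each gene, Icos, Slamf6, Il21 and Maf had positive log2 differences (KO minus Het) and Bcl6, Cxcr5, Sh2d1a and Ascl2 negative ones, with a median of -0.03 over the 8, against -0.03 over all probe sets. The median was 0.35 over the 7 genes without Ascl2, which was dim on every array, and 0.36 over the 18 probe sets, of which 13 had positive and 5 negative differences (42.8% of all tested probe sets were positive).

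**Figure D1:**
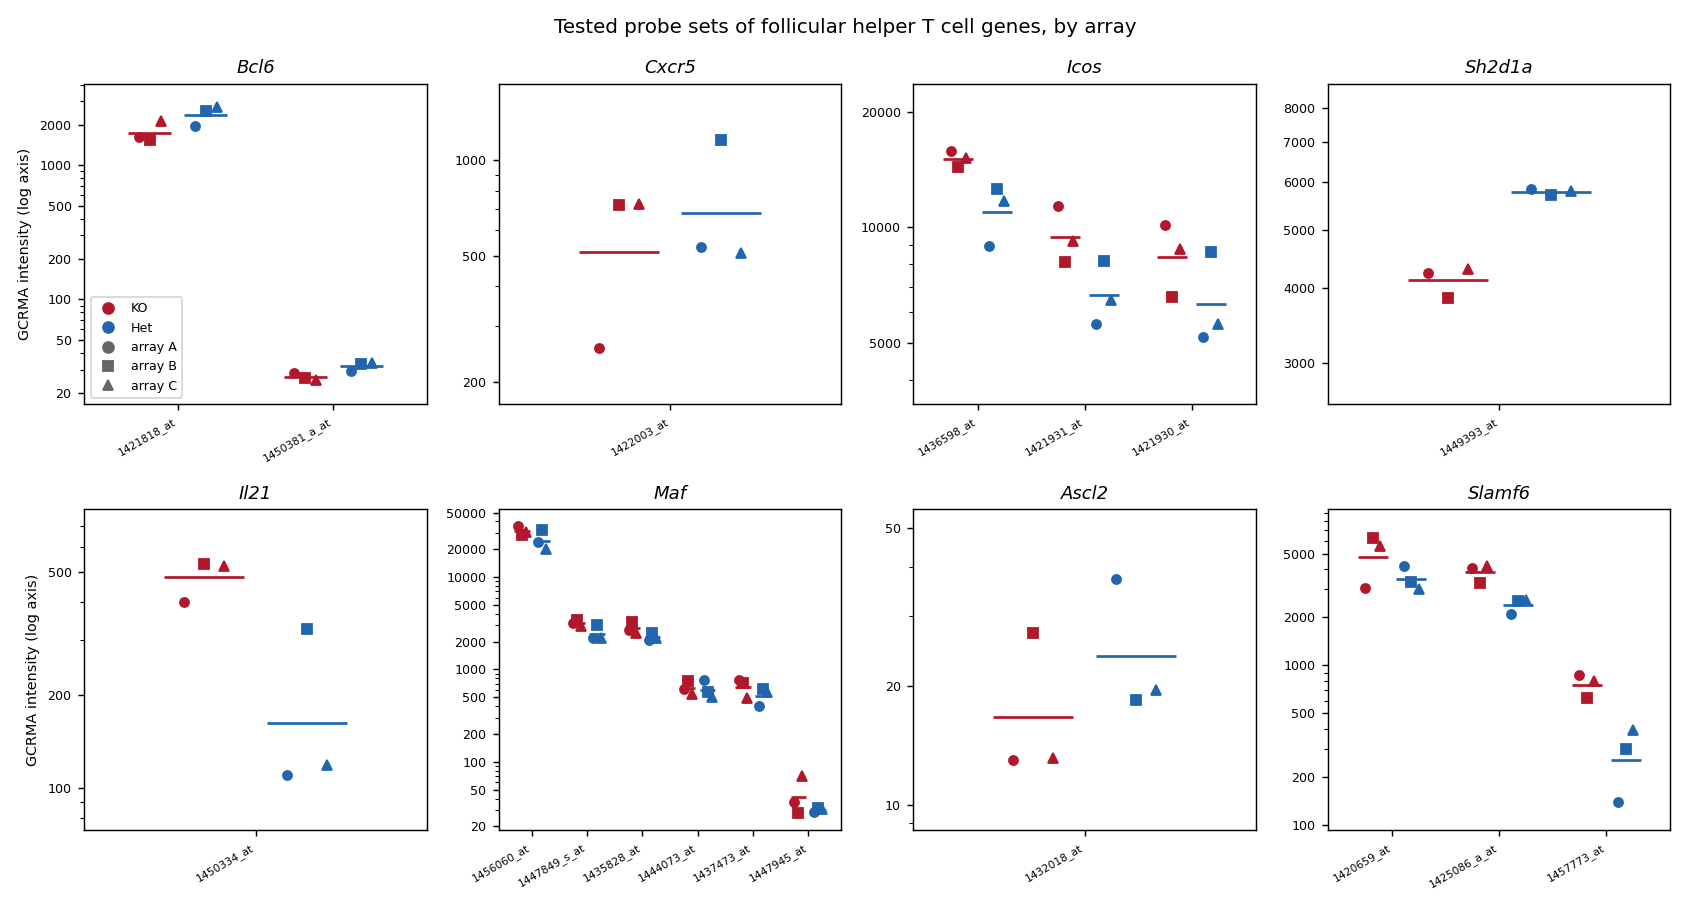
Intensity (log axis) of each tested probe set on each array. KO points are red and stand left of Het points in blue, symbols mark the arrays A, B and C, and short lines are group means on the log2 scale; Sh2d1a, Il21 and the brightest Icos probe set show no overlap between groups, while Cxcr5 and Ascl2 overlap.

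Among the surface receptors, Cxcr5 (chromosome 9, 44511787 to 44526444, GRCm38.p6) encodes the receptor for CXCL13, the chemokine of the B cell follicle. It read 256, 724 and 729 in KO A, B and C and 534, 1160 and 510 in Het A, B and C. KO A was lowest and Het B highest, and the other 4 arrays lay between them with KO B and KO C above Het A and Het C. The log2 difference was -0.41 ± 0.53 (SE; limma, adjusted p = 0.734), with a 95% interval from -1.73 to 0.92. As a fold that interval runs from 0.301 to 1.89, so 3 arrays per group could place Cxcr5 neither higher nor lower in KO. Without KO A the difference turned positive, at 0.094 (adjusted p = 0.92).

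Cxcr5 is also a B cell gene, and B cell RNA was not equal across the arrays. Ms4a1, the gene of the B cell antigen CD20, read 122, 717 and 117 in KO and 37.4, 524 and 48.1 in Het. The summed level of the 10 measured B cell markers was 6594, 13544 and 5144 in KO and 2543, 6958 and 2722 in Het. Cd74 and Cd22 made up most of that sum, and the other 8 markers summed to 989, 2241 and 891 in KO and 661, 2063 and 716 in Het. Of the 10, 6 had positive and 4 negative differences. Of these markers 3, Pax5, Ebf1 and Cr2, lay below the array median on all 6 arrays. Het B was highest of its group for both Cxcr5 and the B cell sum, whereas KO C was level with KO B for Cxcr5 with a B cell sum well below it. Without the B arrays of both groups the Cxcr5 difference was -0.27 (limma, adjusted p = 0.815). The part of B cell RNA in the Cxcr5 values was not tested.

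Icos (chromosome 1, 60960773 to 61000322) encodes the costimulatory receptor that B cells engage through ICOS ligand. Its brightest probe set, 1436598_at, read 15812, 14350 and 15134 in KO and 8954, 12615 and 11727 in Het. All KO arrays lay above all Het arrays there, the log2 difference was 0.46 ± 0.15 (SE; limma, adjusted p = 0.181) and its 95% interval ran from 0.10 to 0.82. The probe set 1421931_at read 11334, 8094 and 9183 in KO and 5599, 8163 and 6455 in Het, a log2 difference of 0.50 (adjusted p = 0.236). The probe set 1421930_at read 10153, 6564 and 8797 in KO and 5186, 8622 and 5585 in Het, a log2 difference of 0.41 (adjusted p = 0.454). The 3 probe sets thus gave differences of 0.41 to 0.50. On the dimmer pair the groups overlapped through the B arrays: KO B was lowest of the KO group and Het B highest of the Het group. Without both B arrays the differences of the 3 were 0.59, 0.76 and 0.81, and none passed the test.

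Icosl, the gene of ICOS ligand, did pass. It read 374, 390 and 367 in KO and 79.2, 129 and 74.7 in Het, a 4.13-fold difference (log2 2.05 ± 0.22, SE; limma, adjusted p = 0.0253). Icosl was highest on the B array of each group, as Ms4a1 was. The KO arrays read 367 to 390 for Icosl and 117 to 717 for Ms4a1. Of the 10 B cell markers, only Cd22 had every KO array above every Het array, and only the dim Cr2 had them below. Cd22 read 1063, 2980 and 1312 in KO and 534, 840 and 534 in Het (limma, adjusted p = 0.173). Icosl is known in B cells and myeloid cells. Of the 6 myeloid markers, Cd68 read 84.1, 231 and 186 in KO and 37.7, 28.4 and 64.0 in Het, and Lyz2 read 232, 1408 and 441 in KO and 50.6, 381 and 97.4 in Het, while Csf1r read 156, 174 and 168 in KO and 164, 152 and 162 in Het. None of these 3 passed (limma, adjusted p = 0.113, 0.318 and 0.742). Summed over the 6 myeloid markers the level was 488 to 1874 in KO and 269 to 578 in Het, most of it from Lyz2 on the highest array of each group, with Itgam and Cd14 among the 3 below the array median on every array. The part of B cells or myeloid cells in the Icosl difference was not tested. With both B arrays left out the Icosl difference was 2.27 and its adjusted p 0.137. Of the fits that left out 1 array, the one without Het B kept the call (adjusted p = 0.0293), and in the other 5 the adjusted p was 0.0679 to 0.104 at a difference of 1.90 to 2.06. The second Icosl probe set read under 10 on every array.

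Slamf6 (chromosome 1, 171917458 to 171948958) encodes Ly108, a receptor of the SLAM family that binds itself on neighbouring cells and signals through SAP. Its 3 probe sets all had positive differences, of unequal size. The dimmest, 1457773_at, read 869, 620 and 803 in KO and 141, 301 and 395 in Het, without overlap (log2 1.56 ± 0.40, SE; limma, adjusted p = 0.119). The probe set 1425086_a_at read 4061, 3289 and 4184 in KO and 2089, 2519 and 2565 in Het, again without overlap. Its log2 difference was 0.68 ± 0.14 (SE; limma, adjusted p = 0.0758), with a 95% interval from 0.34 to 1.03. The brightest, 1420659_at, read 3052, 6293 and 5600 in KO and 4187, 3299 and 2994 in Het, a log2 difference of 0.46 (adjusted p = 0.48). The probe sets disagree on array KO A, which lay below Het A and Het B on the brightest one and above all Het arrays on the other two. When each gene was given the mean log2 over its tested probe sets, Slamf6 was 1.87-fold higher in KO (log2 0.90 ± 0.14, SE; limma, adjusted p = 0.0338), under a rule that called 3.8% of 13280 genes (2.16% as higher). No single Slamf6 probe set passed in the fit over probe sets.

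Sh2d1a (chromosome X, 42502565 to 42522097) encodes SAP, the small adaptor that binds the tails of SLAM receptors and recruits the kinase Fyn. It read 4229, 3842 and 4294 in KO and 5847, 5720 and 5799 in Het. KO averaged 4122 ± 244 and Het 5789 ± 64.1 (SD, n = 3 each), and every KO array lay below every Het array. The difference was -0.49 ± 0.08 (log2, SE), which is 0.711-fold with a 95% interval from 0.621 to 0.814. Its adjusted p of 0.0511 (limma) was the smallest of the list and just outside the threshold. It came to 0.0426 with no filter on dim probe sets, 0.0496 with a stricter filter and 0.0415 with an intensity trend and robust estimation. With array weights it was 0.0397, and in the fit on gene means 0.0328. It stayed above the threshold with quantile normalization (0.0509), median centring (0.0585) and the letter as a block (0.142). Without any single array it was 0.100 to 0.156, and without both B arrays 0.170. The size ran from -0.53 to -0.44 over all alternatives. Among the 4 measured markers of CD4 T cells, Cd3d, Cd3g, Cd3e and Cd4 had log2 differences of -0.23, -0.17, -0.11 and 0.12, none past the test, and groups overlapped for Cd3e and Cd4.

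The other SLAM receptors and SAP partners gave no calls. Of 9 tested genes 0 passed limma's adjusted test and 1 had an unadjusted p under 0.05. Differences were positive for 3 and negative for 6, with a median of -0.19. That median was the value of Slamf9, which read only 19.5 to 29.1. Slamf9, Slamf7 and Cd244a lay below the array median on every array. Over all tested probe sets 1.78% passed, 42.8% were positive, 19.1% had an unadjusted p under 0.05 and the median was -0.03. Ly9, a SLAM receptor, read 2325, 2333 and 2054 in KO and 2651, 2920 and 2905 in Het (log2 -0.34, adjusted p = 0.133). Cd48, a surface ligand of the family, read 9567 to 11569 in KO and 11569 to 14162 in Het (log2 -0.28, adjusted p = 0.297). Neither shared the positive sign of Slamf6.

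**Figure D2:**
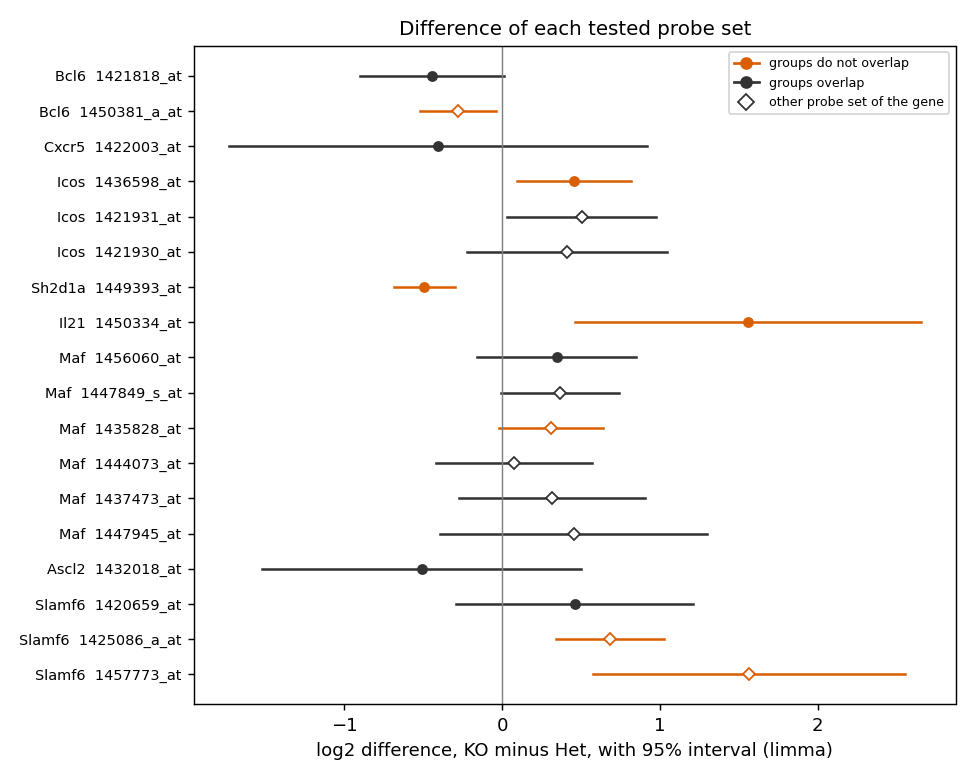
Log2 difference (KO minus Het) of each tested probe set with its 95% interval from limma. Filled circles are the brightest probe set of a gene and open diamonds its other probe sets, and orange marks groups that do not overlap; Sh2d1a has the narrowest interval (-0.69 to -0.30), and those of Il21 and Cxcr5 are wide.

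Il21 (chromosome 3, 37222759 to 37232636) encodes the cytokine through which follicular helper cells act on germinal centre B cells. Its brighter probe set read 400, 529 and 520 in KO and 110, 326 and 119 in Het. No Het array reached the lowest KO array, and Het B stood between the other Het arrays and the KO arrays. The mean was 483 ± 72.4 in KO and 185 ± 122 in Het (SD, n = 3 each), a 2.95-fold difference with a 95% interval from 1.38 to 6.30 (log2 1.56 ± 0.44, SE; limma, adjusted p = 0.145). A positive difference at least as large was seen for 1.47% of all tested probe sets. The difference was 1.28 to 2.06 over the fits that left out 1 array and did not pass in any of the 15 alternatives (smallest adjusted p = 0.0649). The other Il21 probe set read 10.1 to 10.9 on all 6 arrays, was not tested and gave no information. Il21r, the receptor gene, read 1460, 1524 and 1732 in KO and 1157, 1395 and 1143 in Het (log2 0.35, adjusted p = 0.199), and it was named after its values were seen.

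Bcl6 (chromosome 16, 23965050 to 23988866) encodes the zinc finger repressor required for follicular helper and follicular regulatory T cells. Its brighter probe set read 1616, 1551 and 2136 in KO and 1948, 2552 and 2708 in Het. KO A and KO B lay below every Het array, and KO C lay between Het A and Het B. The log2 difference was -0.44 ± 0.18 (SE; limma, adjusted p = 0.276), with a 95% interval of 0.535-fold to 1.01-fold. The dimmer probe set read 28.2, 25.8 and 25.0 in KO and 29.1, 32.9 and 33.8 in Het, without overlap but below the array median on every array (log2 -0.28, adjusted p = 0.207). On neither probe set was Bcl6 higher in KO by group mean. Bcl6 is also expressed in germinal centre B cells. Of 3 measured markers of those cells, Mybl1 rose to 224, 145 and 187 in KO, against 45.0, 65.6 and 75.0 in Het (limma, adjusted p = 0.0489, or 0.0675 with no filter on dim probe sets), while Fas and S1pr2 had log2 differences of -0.03 and 0.03 (adjusted p = 0.953 and 0.879). The part of such cells in the Bcl6 values was not tested. Without both B arrays the Bcl6 difference was -0.31.

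Maf (chromosome 8, 115703253 to 115706894) encodes a leucine zipper factor that drives Il21 and Il4 in helper T cells. Its 6 probe sets all had positive differences, from 0.076 to 0.45 on the log2 scale, and none passed (limma, adjusted p from 0.27 to 0.869). The brightest, 1456060_at, read 36069, 28317 and 30895 in KO and 23725, 32420 and 19923 in Het. Het B lay above KO B and KO C there, and the difference was 0.35 ± 0.20 (SE; adjusted p = 0.426). The probe set 1447849_s_at, whose suffix marks probes shared by transcripts that the array design could not separate, read 3172, 3392 and 2946 in KO and 2206, 3024 and 2207 in Het (log2 0.37). The probe set 1435828_at read 2644, 3235 and 2511 in KO and 2062, 2497 and 2191 in Het, the only Maf probe set without overlap (log2 0.31, adjusted p = 0.288). Of the remaining 3, 1437473_at gave 0.31 and the dim 1447945_at 0.45, with KO C at 70.1 while the other 5 arrays read 27.6 to 36.7. The probe set 1444073_at gave 0.076, and its sign turned without KO B, without Het C and without both B arrays. The mean over the 6 probe sets was a 1.24-fold difference (limma, adjusted p = 0.134).

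Ascl2 encodes a basic helix-loop-helix factor that can induce Cxcr5 in T cells (chromosome 7, 142966822 to 142969264). It had no probe set above the array median on any array. The only tested one read 12.96, 27.2 and 13.1 in KO and 37.2, 18.4 and 19.5 in Het (log2 -0.51 ± 0.41, SE; limma, adjusted p = 0.563), and KO B lay among the Het values. The other two read 3.70 to 11.2 on all arrays. Ascl2 was therefore not measured well enough above background for a comparison.

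The wider follicular helper list held genes with differences of both signs. Of its 27 further tested genes 3 fell, 0 rose and 24 did not pass, where 0.668% of all tested probe sets were called lower and 1.11% higher. There were 14 positive and 13 negative differences, 7 of each sign at an unadjusted p under 0.05, and the median was 0.01. Pdcd1, the gene of the inhibitory receptor PD-1, fell to 1021, 1237 and 1125 in KO, against 2122, 2719 and 2870 in Het (log2 -1.18; limma, adjusted p = 0.0302). Tox, a nuclear factor expressed in follicular helper cells, fell to 5507, 3986 and 4610 in KO, against 10838, 9483 and 10083 in Het (log2 -1.12, adjusted p = 0.0302). Id3, an inhibitor of E proteins that limits follicular helper and follicular regulatory differentiation in mice and so acts against the name of the list, fell to 1667, 960 and 1073 in KO, against 5960, 3561 and 6766 in Het (log2 -2.13, adjusted p = 0.0453). These 3 were called with all 6 arrays, and 0 of the list were called without KO B, without KO C, without any single Het array or without both B arrays. Without KO A, Tox (adjusted p = 0.0442) and Il4 (higher, adjusted p = 0.0294) passed, and Pdcd1 and Id3 did not (adjusted p = 0.0783 and 0.067). With no filter on dim probe sets Id3 did not pass (adjusted p = 0.0637).

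Several other genes of that list were named after their values were seen. Il4, a cytokine of follicular helper and Th2 cells, read 82.8, 337 and 297 in KO and 18.1, 13.2 and 23.0 in Het (limma, adjusted p = 0.0541). The Het values lay near the floor of the arrays, so no size is given for that difference. Tox2, a relative of Tox, read 3231, 4292 and 6572 in KO and 785, 2011 and 1333 in Het (log2 1.81, adjusted p = 0.0988), opposite in sign to Tox. Batf, an AP-1 factor needed for Bcl6 and Maf expression, read 4369, 5071 and 5701 in KO and 3574, 3179 and 4019 in Het (log2 0.49, adjusted p = 0.149). Cd200 read 2834, 2938 and 3570 in KO and 4632, 3694 and 4893 in Het (log2 -0.50, adjusted p = 0.164). Groups did not overlap for any of these 4. In the whole list, every KO array lay above every Het array for 7 of the 27 genes and below for 7. The shares over all tested probe sets were 11.3% above and 14.9% below.

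A separate list held genes that oppose follicular helper differentiation, without Id3. Of 16 tested, 2 rose, 0 fell and 14 did not pass, where 1.11% of all tested probe sets were called higher and 0.668% lower. There were 11 positive and 5 negative differences, against 42.8% positive among all probe sets, and the median was 0.42, against -0.03. Id2, an E protein inhibitor that limits Bcl6-dependent differentiation, rose to 32140, 31889 and 29920 in KO, against 11548, 10996 and 13767 in Het (log2 1.38; limma, adjusted p = 0.0191). T-bet, a factor of Th1 cells, is encoded by Tbx21, which rose to 1698, 2925 and 1668 in KO, against 383, 565 and 454 in Het (log2 2.13, adjusted p = 0.0317). Prdm1, the gene of Blimp-1, the direct antagonist of Bcl6, was named after its values were seen. It read 1943, 2331 and 1721 in KO and 869, 1549 and 1173 in Het, without overlap (log2 0.77, adjusted p = 0.172). Foxo1, also named after its values were seen, went the other way. Foxo1 read 6006, 5824 and 6155 in KO and 7834, 8763 and 7991 in Het, without overlap (log2 -0.45, adjusted p = 0.0605). Its adjusted p was 0.0479 with quantile normalization, 0.0474 with an intensity trend and robust estimation and 0.0491 with array weights (limma). Of this list 0 were called without KO B, without KO C, without any single Het array or without both B arrays. Without KO A, Id2 (adjusted p = 0.0457) and Gpr183 (higher, adjusted p = 0.0313) passed and Tbx21 did not (adjusted p = 0.0687). Some of its members, such as Il2ra and Prdm1, are also genes of activated regulatory T cells.

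Partners of ICOS and of the transcription factors completed the set. Among 12 tested genes of the ICOS and CD28 family with their ligands and kinases, Icosl rose, 0 fell and 11 did not pass (median 0.16). Among 10 tested partners and relatives of Maf and Bcl6, 0 passed limma's adjusted test, 1 had an unadjusted p under 0.05 and the median was -0.05. Over all tested probe sets 1.78% passed and 19.1% had an unadjusted p under 0.05. Mafg, a small Maf protein gene, read 620, 705 and 797 in KO and 362, 494 and 434 in Het (log2 0.72, adjusted p = 0.0847), and its other probe set gave 0.06. Bcor, a corepressor that binds Bcl6, read 2439, 2905 and 2823 in KO and 2827, 3122 and 3676 in Het (log2 -0.23, adjusted p = 0.409).

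**Figure D3:**
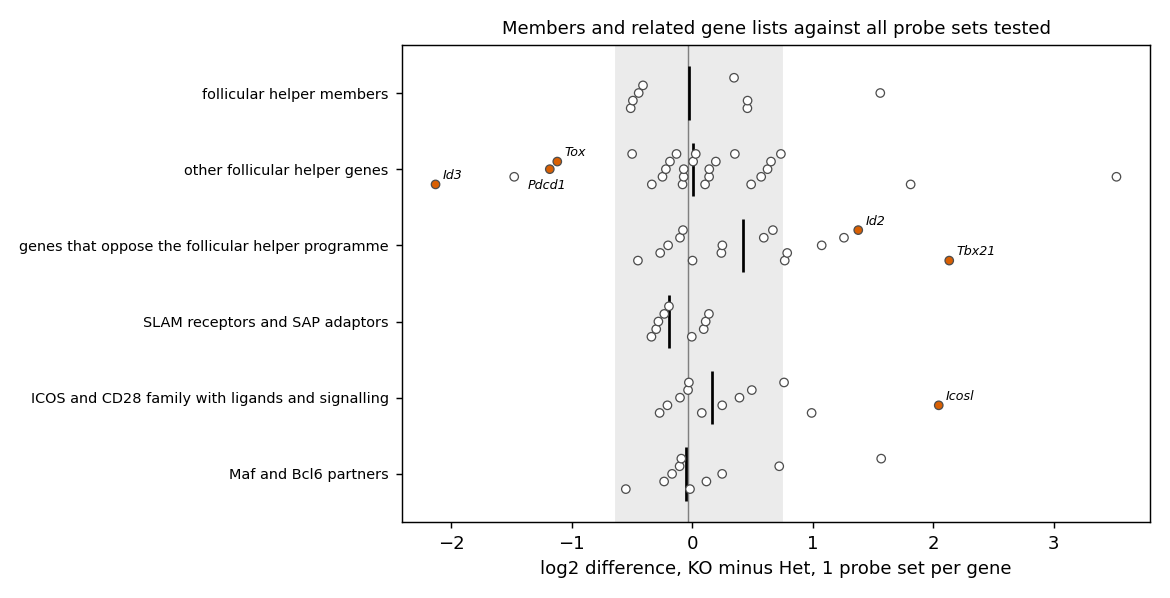
Log2 difference (KO minus Het) of the brightest probe set of each gene, by list. Orange points passed limma's adjusted threshold, black bars are list medians, the grey band spans the 5th to 95th percentile of all tested probe sets and the grey line is their median; of the follicular helper genes at the top, Il21 alone lies outside the band.

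**Figure D4:**
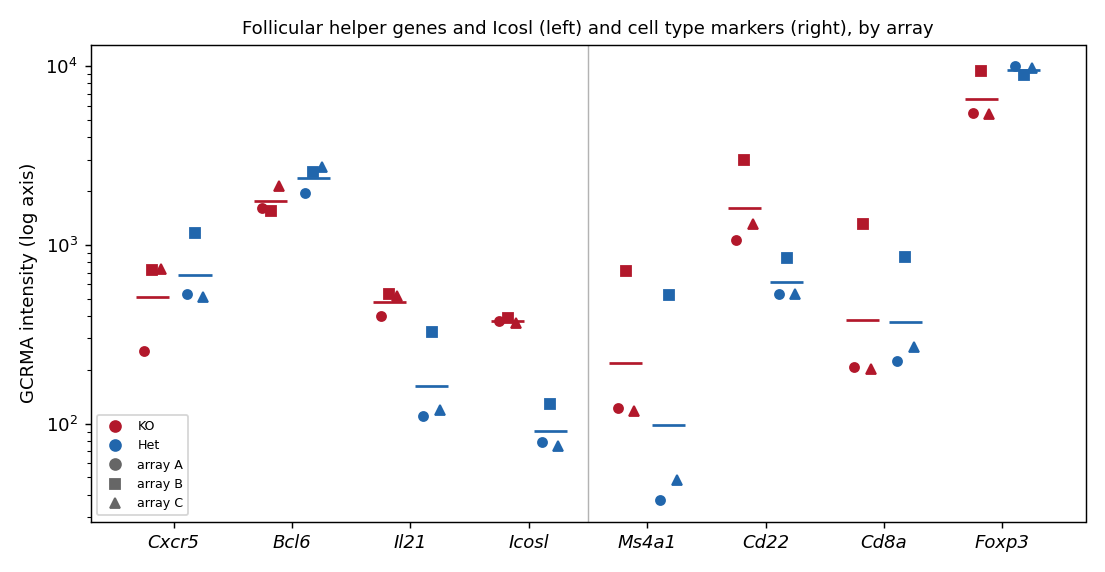
Intensity (log axis) on each array of Cxcr5, Bcl6, Il21 and Icosl, left of the line, and of the cell type markers Ms4a1 (B cells), Cd22 (B cells), Cd8a (CD8 T cells) and Foxp3, right of it. KO points are red and left of Het in blue, and short lines are group means on the log2 scale; the B arrays (squares) are highest of their group for Ms4a1, Cd22 and Cd8a, and Het B also for Cxcr5, Il21 and Icosl.

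Set beside each other, the arrays differed in which members were high. Het B had the highest level of its group for Cxcr5, Il21, the brightest Maf and each Icos probe set, together with the highest B cell and CD8 marker sums of Het. KO B had the highest B cell and CD8 sums of KO. It was lowest of its group on each Icos and the brightest Maf probe set, and highest for Il21 and the brightest Slamf6 probe set. Other probe sets of Maf and Slamf6 ranked KO B differently. It was highest of KO on Maf 1447849_s_at (3392), 1435828_at (3235) and 1444073_at (755), between KO A and KO C on 1437473_at, and lowest on the dim 1447945_at. On Slamf6 1425086_a_at (3289) and 1457773_at (620) KO B was lowest of KO. KO A had the lowest Cxcr5 and Il21 of its group and the highest Icos on every probe set. The CD8 sum was 670, 4415 and 636 in KO and 909, 2257 and 651 in Het. The part of these other cells in the differences between arrays of a group was not tested.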

How the data were processed

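The deposited values are probe set intensities that the authors normalized with GCRMA, per the labels (software version not given in the sources used here). GCRMA removes a background modelled on probe sequence, aligns the arrays and summarises each probe set. Values span 1.23 to 170023, a linear scale, and log2 was taken. The background step presses dim probe sets toward a floor, and having few arrays limits the precision.

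Left out of the 45101 probe sets were 64 controls and 1 lacking values. Those with log2 above 4 on at least 3 arrays (29507) entered a limma fit (version 3.58.1, R 4.3.3; lmFit and eBayes, two-sided, without covariates). Benjamini-Hochberg adjustment ran over all of them, and 0.05 was the threshold. A difference is KO minus Het, and intervals are 95%. Names came from the platform annotation, and gene positions and microRNA sequences from RefSeq tables (GRCm38.p6), with the same gene identifiers in both for the 8 genes measured. A gene is represented by its tested probe set with the highest mean. Related lists are described by counts and medians.

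The members and lists were chosen with earlier results of these data known. All member probe sets are named, and from each list up to 4 genes past the threshold by smallest p, or 2 where 0 passed. Further genes are marked in the text. The steps were run on simulated data with planted differences, as a check only that mean estimates came near the planted values. Rates of recovery and of false calls are not reported here. Alternatives were other filters, scalings and variance models, the letter as a block, gene means and leaving arrays out. Figures were drawn with matplotlib 3.10.9.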

Additional observations from a re-analysis of the deposited data

How the results depend on the processing

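All 8 genes with a tested probe set kept the sign of their brightest probe set in every alternative that tested it (Ascl2 was too dim for the stricter filter), except Cxcr5, which was 0.094 without KO A and ran from -0.66 to 0.094 over the fits that left out 1 array. The Maf probe set 1444073_at turned to -0.050 without KO B, -0.053 without Het C and -0.092 without both B arrays, in a range of -0.053 to 0.25 without 1 array. The number of member probe sets called was 0 in 10 of 14 settings, 1 with no filter on dim probe sets, with a stricter filter and with an intensity trend and robust estimation (Sh2d1a each time), and 2 with array weights (Sh2d1a and the Slamf6 probe set 1425086_a_at). In the fit on gene means Sh2d1a and Slamf6 passed, at adjusted p = 0.0328 and 0.0338. Over all probe sets 525 were called, 957 with array weights, 0 to 176 when 1 array was left out and 0 without both B arrays (limma; 4227 to 5454 and 5274 at an unadjusted p under 0.05), in fits that have fewer arrays. Whether the letters A, B and C pair the arrays is not known. Deviations from the group means correlated at 0.28 for A, -0.17 for B and 0.01 for C. Arrays of different letters gave -0.45 to 0.37, and with 3 arrays per group such values cannot decide the question. With the letter as a replicate block 0 probe sets were called (limma; 5365 at an unadjusted p under 0.05), and 0 members. The count of 3 further follicular helper genes became 5 with array weights (Stat3 and Il4 added), 4 with a stricter filter (Il4 added) and 2 with no filter (without Id3). The count of 2 opposing genes became 3 with quantile normalization, with an intensity trend and robust estimation and with array weights (Foxo1 added, as lower). In the ICOS and CD28 list the count of 1 became 2 with array weights (Ctla4 added, as higher). Dim probe sets, among them those of Ascl2 and the second of Il21, limit what can be said of those genes.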
